A study of Mus musculus with 6 samples.

Results

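Guanylate-binding proteins (GBPs) and immunity-related GTPases (IRGs) are the interferon-gamma-inducible GTPases described here, in mouse adaptive regulatory T cells (aTreg) with and without the BMP receptor BMPR1a. The list names 10 genes: Gbp2, Gbp3, Gbp4, Gbp5, Gbp6, Gbp7, Gbp9, Igtp, Irgm1 and Iigp1. They were looked up by symbol among the 25759 gene identifiers of the table, and 8 of the 10 had a row. Gbp5 and Gbp6 were not analysed here, because the identifiers that carry these symbols in the annotation used matched no row. All 8 passed the filter on low values, a mean of at least 1 FPKM (fragments scaled to transcript length and library size) over the 6 libraries.

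Both groups came from C57BL/6 mice aged 8 to 12 weeks that carry a Foxp3GFP reporter transgene. WT libraries (n = 3) came from normal B6 mice. BMPR1a-deficient libraries (n = 3) came from BMPR/CD4cre mice, in which Cre under Cd4 control deletes the receptor. Because Cd4 is active in thymocytes, such a deletion reaches other T cells of the donor mice too, before any culture. In both groups whole lymph node and spleen suspensions were stimulated for 3 days with IL-2 (10 ng/ml), concanavalin A (2 µg/ml) and TGF-beta (3 ng/ml), and CD4+Foxp3GFP+ cells were sorted. Whether replicates stand for separate mice or cultures is not stated, so p-values cover only the spread between these libraries, which may be technical.

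GBPs and IRGs are large GTPases that gather on the membranes of vacuoles holding bacteria or parasites and help to break them open. Interferon-gamma binds its receptor IFNGR1 and IFNGR2, the kinases JAK1 and JAK2 then signal to the nucleus, and the transcription factor IRF1 takes part in switching these genes on. Known promoter elements of interferon-induced genes are the gamma-activated site (GAS) and the interferon-stimulated response element (ISRE), which IRF1 can bind. IRGs comprise effector GTPases such as Iigp1 (also called Irga6), and regulators such as Irgm1 and Igtp (Irgm3), which hold the effectors inactive on the cell's own membranes. In CD4 T cells Irgm1 is known for protecting activated cells from death in the presence of interferon-gamma.

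Promoter windows of the members were searched for letters that match these elements. Of the 8 members with a row, Gbp2, Gbp3, Gbp7, Irgm1 and Igtp are given, from promoter entries in RefSeq (build GRCm38.p6). Gbp4 and Gbp9 had no entry, and the promoter of Iigp1 is not reported here. The last 120 bases before the start site are given 5′ to 3′ on the gene's own strand, with GAS and ISRE matches in capitals, and Irgm2 is added because it lies directly after Igtp. For Gbp3, which has 2 annotated starts, the first is shown.
Gbp2, chr3:142620543-142620662, plus strand: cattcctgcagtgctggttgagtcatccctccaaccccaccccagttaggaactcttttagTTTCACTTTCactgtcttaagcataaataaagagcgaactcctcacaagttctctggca
Gbp3, chr3:142559924-142560043, plus strand: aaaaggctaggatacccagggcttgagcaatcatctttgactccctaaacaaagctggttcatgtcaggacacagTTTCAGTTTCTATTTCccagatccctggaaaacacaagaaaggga
Gbp7, chr3:142530216-142530335, plus strand: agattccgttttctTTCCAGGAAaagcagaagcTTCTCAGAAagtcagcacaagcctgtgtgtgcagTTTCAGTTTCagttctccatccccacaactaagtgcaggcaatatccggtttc
Irgm1, chr11:48871421-48871540, minus strand: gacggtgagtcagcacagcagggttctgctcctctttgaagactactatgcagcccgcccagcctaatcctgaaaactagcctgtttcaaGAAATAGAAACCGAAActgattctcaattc
Igtp, chr11:58199436-58199555, plus strand: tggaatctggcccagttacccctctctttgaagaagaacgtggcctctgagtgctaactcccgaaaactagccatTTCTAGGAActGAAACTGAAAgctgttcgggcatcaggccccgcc
Irgm2, chr11:58214857-58214976, plus strand: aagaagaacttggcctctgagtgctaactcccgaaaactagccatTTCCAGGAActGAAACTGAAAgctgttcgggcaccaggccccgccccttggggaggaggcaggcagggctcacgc
GAS was searched as TTCNNNGAA and ISRE as GAAANNGAAA, on both strands and with overlapping matches allowed, in the 250 bases before each start. Irgm1 and Gbp3 each held 2 overlapping ISRE matches and Gbp2 held 1, with no GAS match in these windows. The window before the second start of Gbp3 held neither. Gbp7 held 2 GAS matches and 1 ISRE match. Igtp and Irgm2 each held a GAS match followed by an ISRE match that starts 11 bases downstream, and the same distance was found in Tgtp1, Tgtp2 and Gm12185 of the IRG family. Of all 32851 RefSeq promoter windows of this length, 7.02% held a GAS match, 2.98% an ISRE match and 0.332% both. A match describes the letters and says nothing about binding in these cells, and a window without a match does not show that the gene lacks the element.

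The table holds FPKM without counts. The smallest steps in the values pointed to roughly 29900000 to 37600000 fragments per library, so all members lay far above the level of a few fragments. The targeted gene, Bmpr1a, was low in both groups, at 1.39, 2.34 and 1.31 FPKM in WT and 0.439, 0.720 and 0.691 in the deficient libraries (limma log2 fold change -0.71, SE 0.195, adjusted p = 0.184). An exact two-sided permutation test of these values gave p = 0.1, the smallest that 3 against 3 libraries allow. BMPR1a-deficient replicate 1 stood apart from the other 5 libraries. Its 13 mitochondrially encoded transcripts had a median of -3.34 relative to the WT mean on the log2(FPKM + 1) scale, against -0.22 in both other BMPR1a-deficient libraries. limma's array weights, which are lower for libraries that deviate more, gave it 0.117, against 0.568 to 4.18 for the others. Results below are therefore given with and without it.

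WT aTreg expressed all 8 genes, and 4 of them strongly. Igtp was the highest at 401 ± 23.3 FPKM (SD, n = 3), above 97.2% of the 13413 genes tested. Gbp2 (138.6 ± 9.74), Irgm1 (136 ± 2.63) and Iigp1 (126.5 ± 5.12) followed within a narrow range, with 93.3%, 93.2% and 92.7% of tested genes below them. Gbp2 and Irgm1 overlapped in the 3 WT libraries, whereas each WT value of Irgm1 exceeded each of Iigp1 by a small margin (lowest 132.6 against highest 132.3). Gbp4 came next at 57.5 ± 7.90 and Gbp9 at 33.3 ± 9.22, each separated from the gene above and below it. Gbp3 (14.3 ± 1.75) and Gbp7 (14.0 ± 2.06) lay at the middle of all tested genes and overlapped each other. FPKM is scaled to length, so these levels can be set side by side.

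Between the BMPR1a-deficient and WT groups, no member passed the threshold in either direction. In limma 0 of 8 were higher and 0 of 8 lower at an adjusted p under 0.05, where 0.746% of the 13413 genes tested were higher and 0.321% lower. At an unadjusted p under 0.05 there was 1 member of 8, Gbp3, where 15.2% of all genes tested passed, so this count is near the background. The median log2 fold change of the 8 was -0.27, against 0.04 over all genes tested, and it became 0.10 without BMPR1a-deficient replicate 1, against 0.07 over all genes. Gbp3 was also the only member whose groups did not overlap, with all BMPR1a-deficient values above all WT values. Over all tested genes 15.9% were arranged that way and 10.4% the opposite way, so 1 member of 8 is near the background. A p that misses the threshold does not show that the groups are alike.

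**Figure D1:**
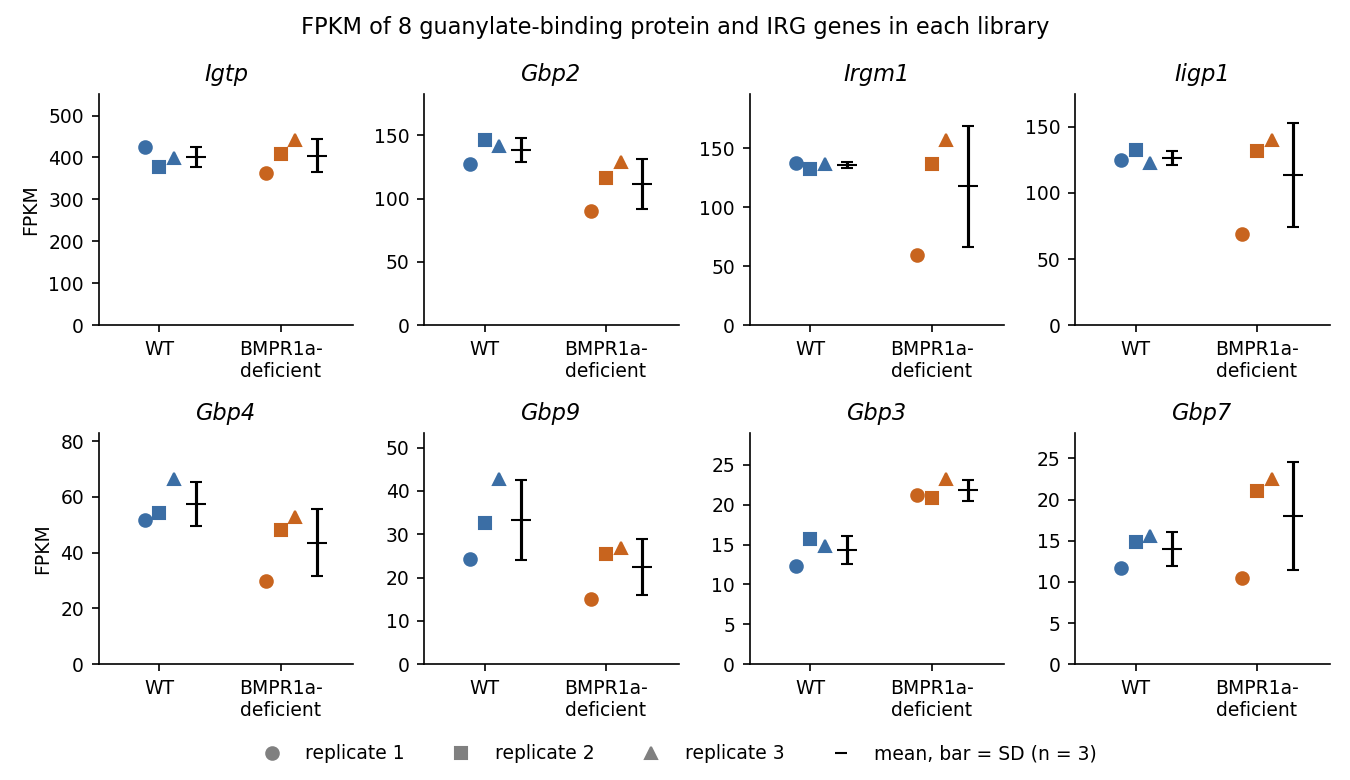
FPKM of the 8 members in each library, WT in blue and BMPR1a-deficient in orange, with the symbol giving the replicate and the black bar the mean and SD (n = 3). BMPR1a-deficient replicate 1 (circles) is the lowest of the 6 libraries for every member except Gbp3. For Igtp, Irgm1 and Iigp1, BMPR1a-deficient replicate 2 lies inside the WT range and replicate 3 above it.

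Among the GBPs of chromosome 3, Gbp3 was higher in each BMPR1a-deficient library. It stood at 12.4, 15.7 and 14.8 FPKM in WT and at 21.2, 20.9 and 23.2 in the deficient group (log2 fold change 0.58, SE 0.116, limma adjusted p = 0.0955). The 3 deficient values are tight and lie clear of WT, and the exact two-sided permutation p was 0.1, the smallest possible. Over the alternatives its adjusted p ran from 0.0204, with array weights, to 0.323, without WT replicate 3, and array weighting was the only setting that brought it under the threshold.

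Gbp7, which lies between Gbp5 and Gbp3 on the chromosome, was at 11.7, 14.8 and 15.55 FPKM in WT and at 10.4, 21.1 and 22.5 in the deficient libraries. Replicates 2 and 3 of the deficient group exceeded all WT libraries and replicate 1 lay under them all. The log2 fold change was 0.28 (SE 0.298, limma adjusted p = 0.66). Without BMPR1a-deficient replicate 1 it was 0.61 (SE 0.136), still not past the threshold (limma adjusted p = 0.118). Of the 50-base words of Gbp7, 12.7% occur in transcripts of another gene, so the division of its reads is uncertain to that extent. Gbp2, which carries a lipid anchor and coats pathogen vacuoles, was at 128, 146.5 and 141.5 FPKM in WT and 90.3, 116 and 129 in the deficient group. Its groups overlapped through a single pair of libraries (log2 fold change -0.32, SE 0.158, limma adjusted p = 0.396). Without BMPR1a-deficient replicate 1 the log2 fold change of Gbp2 was -0.18. Gbp2b, the family's gene next to Gbp2 and not on the list, was at 18.2, 21.6 and 22.0 in WT and at 23.1, 26.9 and 28.1 in the deficient libraries (limma adjusted p = 0.307). Within the cluster that holds Gbp5 to Gbp2 (chromosome 3, 142493978 to 142638008 in GRCm38), Gbp3 and Gbp2b thus had all deficient values above WT, and Gbp2 had 2 of 3 below every WT value.

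The GBPs of chromosome 5 lay lower in the BMPR1a-deficient means, without passing the threshold. Gbp4 was at 51.7, 54.25 and 66.5 FPKM in WT and at 29.9, 48.1 and 52.7 in the deficient libraries (log2 fold change -0.42, SE 0.234, limma adjusted p = 0.44). Gbp9 was at 24.4, 32.6 and 42.8 and at 15.1, 25.4 and 26.8 (log2 fold change -0.55, SE 0.286, limma adjusted p = 0.415). In both genes replicate 1 of the deficient group was the lowest library and WT replicate 3 the highest, and the other libraries overlapped. Without BMPR1a-deficient replicate 1 the log2 fold changes were -0.18 and -0.30. Gbp8 of the same cluster was at 28.7 ± 5.05 and 25.6 ± 1.76 FPKM (SD, n = 3), and Gbp11 at 8.99 ± 0.988 and 6.74 ± 2.49. The exons of Gbp4, Gbp9 and Gbp8 share a first stretch of 60 or 61 bases, and 7.70% of the 50-base words of Gbp4, 8.05% of Gbp9 and 18.1% of Gbp8 occur in transcripts of another gene, so the division of reads among them is uncertain to that extent.

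Of the IRGs, the regulator Igtp was the steadiest. It was at 425, 378 and 399.5 FPKM in WT and at 362, 409 and 442 in the deficient group (log2 fold change 0.01, SE 0.129, limma adjusted p = 0.975). The means, 401 and 404, differ by less than the spread of either group. The regulator Irgm1 was at 138, 133 and 137 in WT and at 59.8, 136 and 157 in the deficient libraries. WT values agree within 2.63 FPKM (SD), replicates 2 and 3 of the deficient group lie at or above them, and replicate 1 was 44.1% of the WT mean. Its log2 fold change was -0.32 with all libraries (SE 0.361, limma adjusted p = 0.682), and turned to 0.11 without BMPR1a-deficient replicate 1 (SE 0.0848, limma adjusted p = 0.521) and to 0.06 with array weights.

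The effector Iigp1 on chromosome 18 was at 125, 132 and 122 FPKM in WT and at 68.7, 132 and 140.2 in the deficient libraries. The pattern is that of Irgm1, with deficient replicate 1 low, replicate 2 inside the WT range and replicate 3 above it. The log2 fold change of -0.22 (SE 0.281, limma adjusted p = 0.713) turned to 0.10 without BMPR1a-deficient replicate 1 (SE 0.0718, limma adjusted p = 0.479) and to 0.09 with array weights. Thus, with replicate 1 left out, the means of replicates 2 and 3 were 106% of the WT mean for Igtp, 108% for Irgm1 and 107.5% for Iigp1.

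**Figure D2:**
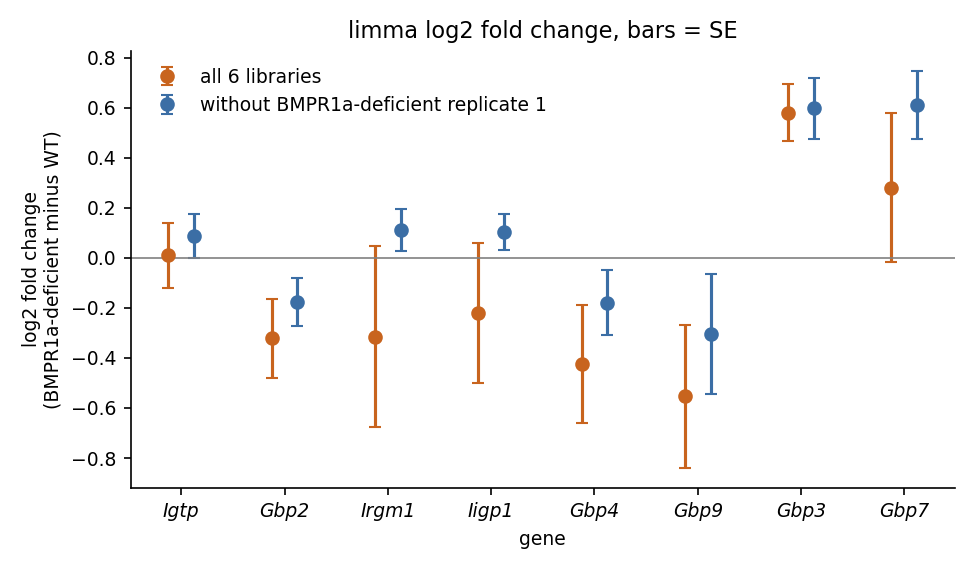
limma log2 fold change of each member, BMPR1a-deficient minus WT on the log2(FPKM + 1) scale, with bars for the SE, from all 6 libraries (orange) and without BMPR1a-deficient replicate 1 (blue). Gbp3 is at 0.58 and 0.60, whereas Irgm1 and Iigp1 change sign between the fits.

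Of the other genes of the families, 18 were listed: 17 had a row and 16 were tested, with 0 higher and 0 lower over all genes in limma, also without BMPR1a-deficient replicate 1. Irgc1, under 1 FPKM in every library, did not pass the filter. Ifi47 (Irgd) was at 259, 251 and 257 FPKM in WT and at 182, 267 and 267 in the deficient group. Irgm2, the third regulator, was at 55.3, 47.0 and 49.3 and at 24.4, 53.1 and 56.3. Irgm2 and Igtp overlap on the same strand in 162 exon bases, 8.01% of Igtp, and 11.8% of the 50-base words of Igtp occur in Irgm2. In BMPR1a-deficient replicate 1 Igtp was at 90.3% of its WT mean and Irgm2 at 48.2%. Tgtp1 and Tgtp2 (Irgb6 copies) were at 174, 183 and 166 and at 146, 162 and 140 FPKM in WT. In the deficient libraries they were at 69.7, 164 and 179 and at 67.1, 134 and 146. Tgtp1 shares 81.2% of its 50-base words with another gene and Tgtp2 86.6%, mostly each other, so their sum is better determined than either value. Gm12250 (Irgb10) was at 49.85 ± 4.85 and 50.3 ± 8.58 FPKM (SD, n = 3).

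Gvin1, a giant GTPase, was the lowest relative to WT among the other genes, at 81.8, 94.0 and 98.6 FPKM in WT and 50.5, 57.9 and 65.8 in the deficient libraries (log2 fold change -0.65, SE 0.137, limma adjusted p = 0.107). Its groups did not overlap, but 99.2% of its 50-base words occur in another gene, so the gene that these reads came from is uncertain. The remaining tested genes, Gm12185, Gm4951, Gm4841, F830016B08Rik, 9930111J21Rik1, 9930111J21Rik2 and Irgq, had log2 fold changes between -0.58 and 0.24 and limma adjusted p values from 0.344 to 0.883.

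BMPR1a-deficient replicate 1 was low for most genes of the family. It was the lowest of the 6 libraries for 7 of 8 members and 14 of 16 other family genes, against 37.9% of all genes tested. The median member lay 0.74 below the mean of replicates 2 and 3 (log2), against 0.11 below for all genes tested, and the depth differed little (35900000 fragments against 32000000 and 36700000). The size ranged widely among members, from -0.05 for Gbp3 and -0.23 for Igtp to -0.974 for Iigp1, -0.996 for Gbp7 and -1.28 for Irgm1. Irgm2, of the other family genes, stood at -1.14. Whether promoter elements have a part in these sizes was not tested.

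**Figure D3:**
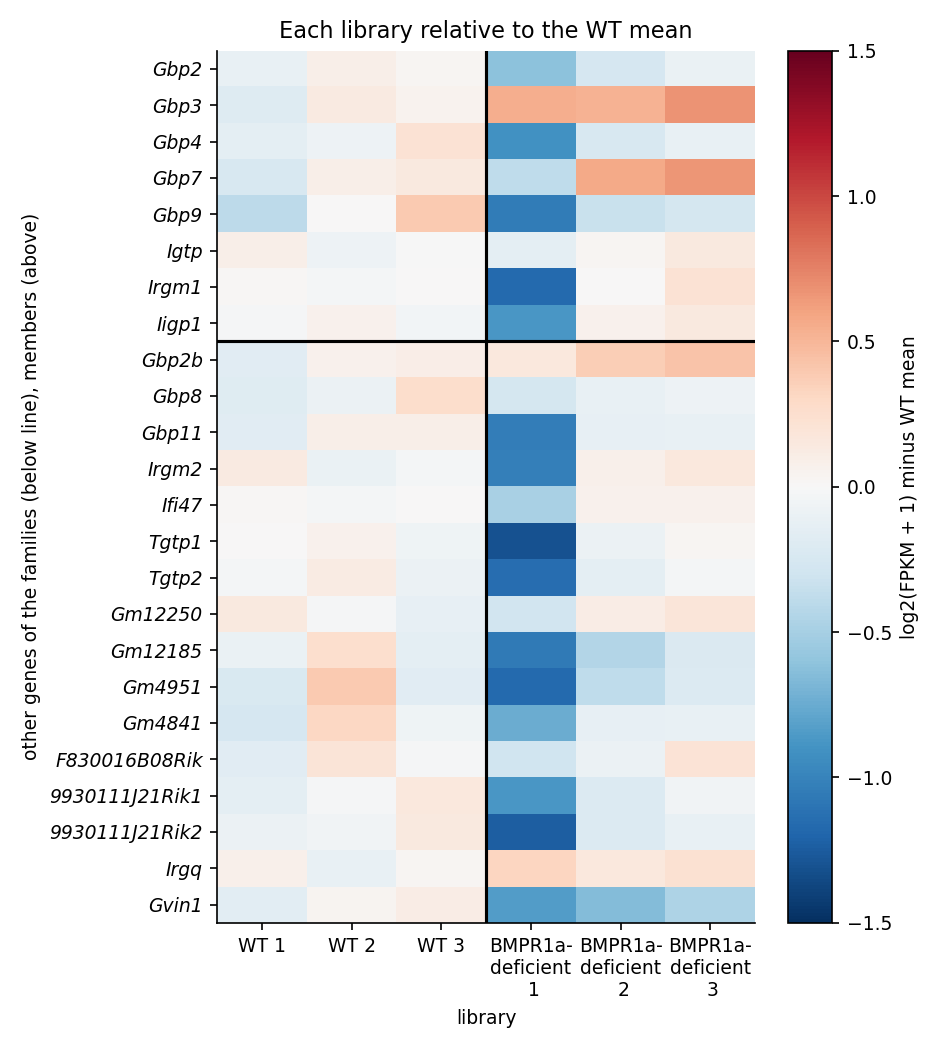
Each library relative to the WT mean for the 8 members (above the line) and 16 other tested genes of the families (below), as differences of log2(FPKM + 1), blue for lower and red for higher. The column of BMPR1a-deficient replicate 1 is the bluest, and Gbp3, Gbp2b and Irgq are red in all 3 BMPR1a-deficient libraries.

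The shift of that library moved with the base composition of transcripts. With the tested genes in 5 equal bins by GC content of the longest transcript, its median difference from replicates 2 and 3 went from -0.33 in the lowest bin (up to 43.8% GC) through -0.20, -0.12 and -0.02 to 0.17 in the highest (from 55.1%). The members have a median GC content of 44.2%, against 49.4% for all genes tested. Gbp4, Gbp7, Gbp9 and Iigp1 fall in the lowest bin, Gbp2, Gbp3 and Irgm1 in the next and Igtp, at 49.5%, in the middle. Of the 8, 7 lay below the median of their own bin, and Gbp3 lay above it. With a GC correction of each library, added after seeing the data, the members' median log2 fold change was -0.26 and 0 members were called.

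**Figure D4:**
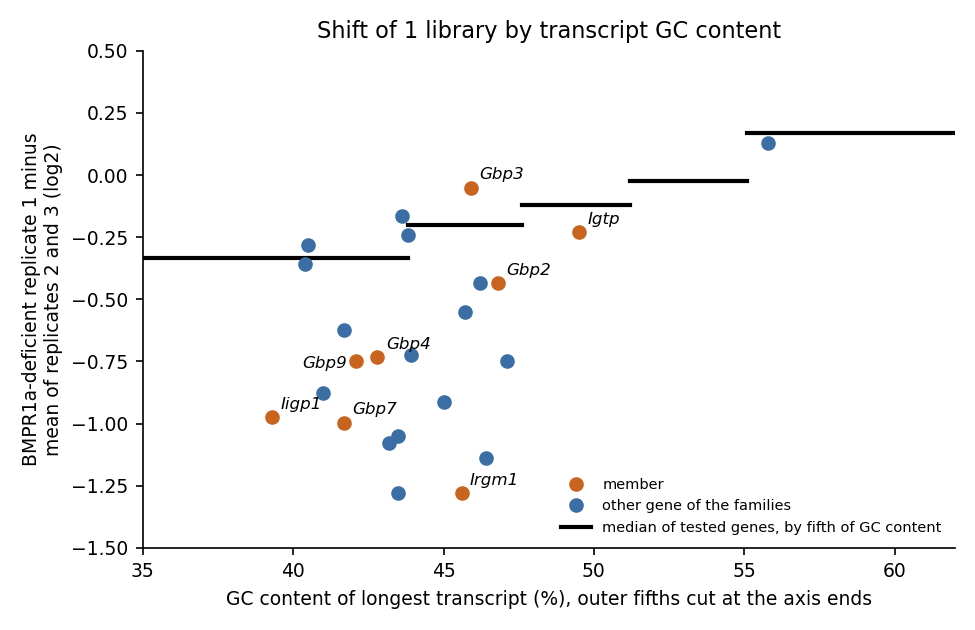
Difference of BMPR1a-deficient replicate 1 from the mean of replicates 2 and 3 (log2(FPKM + 1)) against GC content of the longest transcript, for the members (orange) and the other family genes (blue), with black lines for the median of all tested genes in each bin of GC content. The medians climb from -0.33 to 0.17, and Gbp3 is the only member above the line of its bin.

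Upstream of the family, the ligand gene Ifng was low and higher in each deficient library, at 1.47, 3.38 and 1.57 FPKM in WT and 4.16, 5.23 and 5.64 in the deficient group (log2 fold change 0.98, SE 0.252, limma adjusted p = 0.16). The receptor gene Ifngr1 was at 191, 229.6 and 231.5 in WT and at 49.8, 136 and 148 in the deficient libraries (log2 fold change -1.10, SE 0.423, limma adjusted p = 0.311). Ifngr1 thus lay under WT in all 3 deficient libraries and lowest in replicate 1, at 35.01% of the mean of replicates 2 and 3. Ifngr2, the second chain, overlapped between groups, at 15.8, 11.6 and 13.5 and at 9.81, 16.6 and 16.3 FPKM. The transcription factor gene Irf1 was at 245, 209.7 and 225.5 and at 195, 249.7 and 262 (limma adjusted p = 0.894). Irf1 in BMPR1a-deficient replicate 1 was under the WT range, and in replicates 2 and 3 it was above it.

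Jak1 and Jak2 were at 174 ± 10.2 and 47.96 ± 3.23 FPKM in WT and at 152 ± 23.3 and 46.5 ± 8.20 in the deficient group (SD, n = 3). Socs1, which feeds back on JAK kinases, was at 47.4, 24.0 and 24.9 and at 25.8, 48.6 and 54.5, with 1 library of each group standing away from its fellows. Ptpn6, which encodes the phosphatase SHP-1, was at 253 ± 14.8 and 335 ± 70.7. Of the 16 tested genes of interferon-gamma signalling, 0 were higher and 0 lower in limma over all genes, with a median log2 fold change of -0.02. Without BMPR1a-deficient replicate 1 these counts were again 0 and 0, and the median was 0.11.

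Other genes that interferon-gamma induces did not share the low values of that library as a list. Of 27 listed, 23 were tested, with 0 higher and 0 lower in limma and a median log2 fold change of 0.12. In BMPR1a-deficient replicate 1 the median was 0.25 above the WT mean, whereas that of the GBP and IRG members was 0.74 below it. Median GC content and the median difference of that library from replicates 2 and 3 were 37.1% and -3.16 for the 13 mitochondrially encoded transcripts. They were 43.5% and -0.06 for the 7 tested atlastin and dynamin genes and 44.2% and -0.74 for the members. The 16 other family genes had 43.7% and -0.675, and 6 inflammasome genes 44.2% and -0.39. The 12 autophagy genes had 46.7% and -0.10, and 28 genes induced by type I interferon 47.0% and -0.64. For 10 macrophage, monocyte and dendritic cell markers the values were 50.4% and -1.64, and for these 23 interferon-gamma induced genes 53.9% and 0.03. The part of GC content in the difference between lists was not tested. Within the list, B2m, the light chain of MHC class I, was at 3054, 3050 and 2980 FPKM in WT and at 889.5, 2894 and 2901 in the deficient libraries, and the heavy chain gene H2-K1 at 1279, 1233 and 1336 and at 722, 1347 and 1120. Psme2, a proteasome activator subunit picked after its values were seen, went the other way in replicate 1, at 369.8, 398 and 357.5 and at 755, 431 and 438. Each B2m and H2-K1 value of replicate 1 was the lowest of the 6 libraries and the Psme2 value the highest.

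The 28 tested genes induced by type I interferon had 0 higher and 0 lower in limma and a median log2 fold change of -0.39, or -0.19 without BMPR1a-deficient replicate 1. Their median in that library was 0.82 below the WT mean, against 0.27 and 0.10 below in replicates 2 and 3. Of the 28, 10 had every deficient value below every WT value and 0 the opposite, against 10.4% and 15.9% of all genes tested. At an unadjusted limma p under 0.05 there were 9 of 28, against 15.2% of all genes tested. The genes share the same 6 libraries, so these counts are not independent. Ifi27l2a was at 801, 923 and 835 FPKM in WT and 547, 677 and 677 in the deficient group, so its groups did not overlap (limma adjusted p = 0.273). Sp100 was at 281, 284 and 305 and at 173, 290.4 and 276. Ifnar1, a chain of the type I receptor, was at 63.1 ± 3.88 and 57.2 ± 13.5 FPKM (SD, n = 3) and Irf3 at 47.2 ± 5.06 and 59.0 ± 14.2. None of the 6 tested receptor and signalling genes of this pathway passed the threshold in limma.

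**Figure D5:**
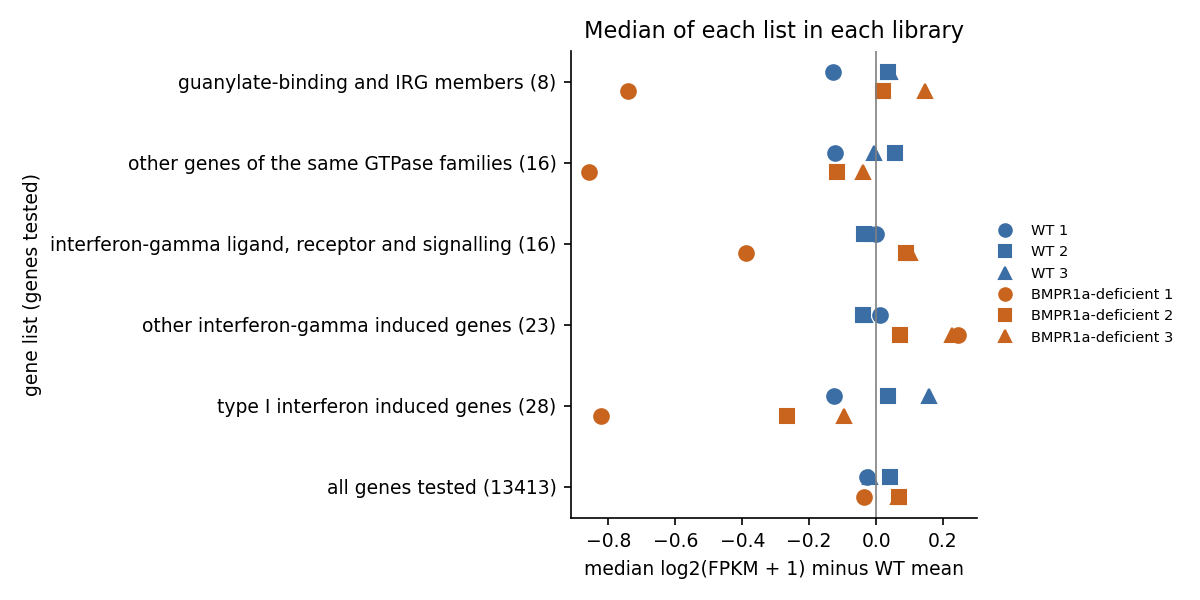
Median of log2(FPKM + 1) minus the WT mean over the tested genes of each list, for each library (blue WT, orange BMPR1a-deficient, symbol for the replicate). BMPR1a-deficient replicate 1 is at -0.74 for the members and at 0.25 for the other interferon-gamma induced genes, and all genes tested lie near 0.

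BMPR1a-deficient replicate 1 was the lowest of the 6 libraries in 9 of 23 tested genes beside or within the clusters. This is near the 37.9% of all genes tested. Among these 9 are Gm43302, whose exons overlap those of Gbp6, and Gm5431, which shares 11.4% of the 50-base words of Gm12185. The 23 genes are therefore not all free of sequence shared with the families. In 18 of the 23 replicate 1 was below the mean of replicates 2 and 3 and in 5 above it. Over all genes tested it was below both of these replicates in 54.1%, a stricter measure. At the IRG cluster of chromosome 11 (48861968 to 49096974), the flanking gene Trim41 was at 18.9, 18.9 and 20.4 FPKM in WT and at 34.4, 16.8 and 18.1 in the deficient libraries, with replicate 1 the highest. Psme2b, inside the cluster, was also highest there, at 84.1 against 58.3 and 60.4 in replicates 2 and 3. Beside the chromosome 5 GBPs, Lrrc8c was at 45.6, 46.5 and 39.7 in WT and 26.1, 48.8 and 53.0 in the deficient group, with replicate 1 the lowest. Kyat3, Gtf2b and Pkn2, which follow Gbp2 on chromosome 3 in this order, had replicate 1 at 68.7%, 76.4% and 90.0% of the mean of the other deficient libraries. Gm43302, whose exons cover 29.0% of the exon bases of Gbp6, was at 60.5, 59.7 and 69.4 FPKM in WT and 53.1, 67.5 and 75.9 in the deficient group.

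Over the 6 libraries, the genes with a profile nearest to the members' mean were Rfk, Rfx7, Gosr2, Parp8 and Coa5, by root mean square difference of centred log2(FPKM + 1) values among 7570 genes with a mean of at least 10 FPKM. The difference was 0.0290 for Rfk and 0.0504 for Coa5. Among interferon genes picked after their values were seen, Irf9 was at rank 879, Irf1 at 1455, Stat2 at 2052 and Tap1 at 3554. Psmb9 was at 4384, Irf7 at 4915 and Socs1 at 6138. The members' mean profile is lowest in BMPR1a-deficient replicate 1, so a low value of the nearest genes in that library follows from the selection. Rfk was at 18.5, 20.6 and 21.03 FPKM in WT and at 13.5, 21.6 and 22.7 in the deficient libraries.

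The sorted cells carried CD4 T cell markers in all libraries, with Cd3g at 534 ± 24.04 FPKM in WT and 484 ± 13.0 in the deficient group (SD, n = 3). All 10 markers of the list were tested and 0 were called in limma. BMPR1a-deficient replicate 1 was the lowest of the 6 libraries for 3 of the 10, against 37.9% of all genes tested. For 5 of the 10 it was below both other deficient libraries, against 54.1% of all genes tested, so both counts are near the background or under it. Foxp3, the gene behind the sorting reporter, was at 55.9, 49.4 and 62.3 FPKM in WT and at 51.3, 96.9 and 72.1 in the deficient libraries, with replicate 1 inside the WT range. In that library Cd3e was at 46.3% of the mean of replicates 2 and 3, Ctla4 at 50.8%, Cd28 at 59.05%, Foxp3 at 60.7% and Il2ra at 62.9%. Cd5, Cd3g, Cd2, Cd4 and Cd3d were there at 98.98%, 98.85%, 107.1%, 124.5% and 127.1%. Against the WT mean, Cd3e, Ctla4, Cd28, Foxp3 and Il2ra in replicate 1 were at 55.65%, 40.7%, 51.5%, 91.8% and 105.3%. Macrophage, monocyte and dendritic cell markers, cells in which GBPs and IRGs are also strongly induced, were present at varying levels. The 15 genes summed to 185.5, 50.5 and 95.2 FPKM in WT and to 24.2, 88.3 and 169 in the deficient libraries, lowest in replicate 1. Of the 15, Fcgr1, Xcr1 and Siglech were under 0.5 FPKM in every library, and Fcgr1 was listed at 0 in BMPR1a-deficient replicate 1. Lyz2 ranged from 14.5 to 84.5 FPKM in WT. The part of these cells in the members' low values in replicate 1 was not tested. B cell markers (10 genes) summed to 34.4 to 65.75 in WT and 45.6 to 64.9 in the deficient group, and CD8 T and NK cell markers (9 genes) to 47.1 to 61.9 and 49.65 to 96.8. The 8 granulocyte and mast cell genes summed to 3.32 to 26.3 in WT and to 7.74 to 132 in the deficient group, lowest there in replicate 1. In such bulk samples, fewer cells of a type and less RNA per cell cannot be told apart.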

How the data were processed

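RNA-seq was made from 6 libraries, 3 per group. The deposited values are FPKM, 1 column per library. TopHat2, Cufflinks and Cuffdiff and the build GRCm38.p4 are named per the submitters' processing notes. Versions, settings, strand handling, annotation and any scaling between libraries were not given in the labels or headers at hand. Without counts a count model could not be applied, and depth was estimated from the smallest steps in 4318 genes.

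Columns were assigned by name (0 were left out). Symbols and positions came from GENCODE M21 (GRCm38), which matched 96.6% of identifiers. Genes averaging 1 FPKM or more over the libraries were fitted with limma 3.58.1 (R 4.3.3) on log2(FPKM + 1), with eBayes and a trend, two-sided, with Benjamini-Hochberg adjustment over all 13413 genes at 0.05. The fit was tested on simulated data. Fold changes are on that log2 scale and understate low genes. Words of 50 bases came from GENCODE transcripts.

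The members and lists were chosen with earlier results of these data known. Named genes are the members, Bmpr1a, all tested genes of the families, fixed signalling genes (1 is not reported here), up to 4 called or otherwise the 2 highest genes of each other list, the 5 nearest profiles and flanking genes. The closing section gives 17 other settings and 1 GC correction added after seeing the data.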

Additional observations from a re-analysis of the deposited data

How the results depend on the processing

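The count of 0 members called held in all 17 other settings except array weights, where 1 was called (Gbp3), and in the added GC correction. Of all genes tested, 143 were called, and 1240 with array weights, 296 with protein-coding genes only, 10 with a replicate block and between 22 and 231 when a library was left out (the highest without BMPR1a-deficient replicate 1, the lowest without WT replicate 3). The share of calls that were higher was 69.9%, and 55.7% with quantile normalization. The replicate block changed no member's call. Deviations of same-numbered libraries correlated at 0.0103, 0.0645 and 0.0518, and those of differently numbered libraries at -0.0935 to 0.0412. These values do not settle whether replicate numbers pair the libraries. Signs turned for Igtp, to -0.0357 with upper-quartile scaling and -0.0206 with the GC correction, with a range of -0.0571 to 0.0864 over left-out libraries. Irgm1 turned to 0.056 and Iigp1 to 0.0927 with array weights, and over left-out libraries they ranged from -0.58 to 0.11 and from -0.41 to 0.10. The cause of these turns was not tested, beyond the low values of BMPR1a-deficient replicate 1. Gbp2, Gbp3, Gbp4, Gbp7, Gbp9 and Bmpr1a kept their direction in every fit that tested them, and Bmpr1a, which missed the filter at a mean of at least 5 FPKM and without WT replicate 2, was at -1.29 with a pseudocount of 0.1. The members were at 10.4 FPKM or more in every library.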

Other observations

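GBPs and IRGs are guided to vacuoles by the autophagy conjugation machinery and act upstream of inflammasomes, so both lists were read alongside. Of 12 tested autophagy conjugation and adaptor genes, 0 were higher and 0 lower in limma, with a median log2 fold change of 0.01. Gabarap was at 174, 151 and 166 FPKM in WT and at 143, 200.1 and 195 in the deficient group, and Gabarapl2 at 84.3 ± 8.63 and 80.7 ± 12.4 (SD, n = 3). The 7 tested atlastin, dynamin and mitofusin GTPases, large GTPases that remodel membranes without interferon, also had 0 higher and 0 lower, with a median of 0.11, and Dnm2 was at 103 ± 8.45 and 93.3 ± 2.36 FPKM.

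Of 6 tested inflammasome genes, 0 were higher and 0 lower in limma. The DNA sensor gene Aim2 was at 29.5, 31.1 and 28.8 FPKM in WT and at 37.8, 41.5 and 44.7 in the deficient libraries (limma adjusted p = 0.115), so its groups did not overlap. Casp1 and Casp4, singled out after their values were seen, lay the other way, at 3.77, 7.90 and 6.10 and at 1.89, 2.51 and 3.24 for Casp1 (limma adjusted p = 0.193), and at 5.2, 10.8 and 9.62 and at 2.22, 2.84 and 4.33 for Casp4 (limma adjusted p = 0.159). The adaptor gene Pycard was at 75.8, 68.6 and 67.5 and at 135, 68.2 and 59.8, with BMPR1a-deficient replicate 1 the highest library.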
